A study of Mus musculus with 6 samples.

Results

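The atrophy ubiquitin ligases and FoxO factors are a group of 10 mouse genes taken by name. The rule itself uses no measured value, but the genes were chosen with earlier results of these data known. They are the ubiquitin ligase genes *Fbxo32*, *Trim63*, *Fbxo30*, *Fbxo31*, *Fbxo21*, *Fbxo40*, *Cblb* and *Traf6* and the transcription factor genes *Foxo1* and *Foxo3*. All 10 are among the 27179 genes listed, and all 10 are among the 16483 genes that passed the filter on low counts. RNA-seq was performed on quadriceps of 3 control mice (libraries B, C and D) and 3 miDrp1KO mice (libraries A, E and F), and asks which muscle transcripts differ 3 weeks after deletion of *Dnm1l*, the gene of the mitochondrial fission protein Drp1. The miDrp1KO mice carried floxed *Dnm1l* and HSA-MerCreMer, a tamoxifen-inducible Cre driven by a human skeletal actin promoter and so limited to muscle fibres. The controls carried floxed *Dnm1l* without Cre, both groups received tamoxifen at 3 months of age, 50 mg/kg on each of 4 days, and all were kept on normal chow and studied after 6 hours of fasting. Presence of the Cre and loss of *Dnm1l* therefore cannot be told apart.

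Muscle protein is broken down in large part by the ubiquitin-proteasome system, in which an E1 enzyme activates ubiquitin, an E2 enzyme carries it and an E3 ligase attaches it to a chosen substrate. In wasting muscle, FoxO transcription factors that are no longer phosphorylated by Akt enter the nucleus and switch on ligase genes, above all *Fbxo32* (atrogin-1) and *Trim63* (MuRF1), whose transcripts are the usual markers of the atrophy program. The F-box proteins work as substrate receptors of SCF ligases, built on Skp1 and a cullin, whereas MuRF1, Cbl-b and Traf6 carry a RING domain of their own.

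The start region of *Trim63* is shown because it was the only one of the member promoters searched that held the core of the FoxO element. The element was searched as GTAAACA, or TGTTTAC on the other strand, in windows of 250 bases before to 50 bases after each RefSeq start site (GRCm38.p6). Windows were found for 9 members, 10 windows in all because *Fbxo40* has 2, and *Fbxo32* was not searched. The 250 bases before the start site of *Trim63* lie at chr4:134314870-134315119, plus strand, and are given 5′ to 3′ with 3 matches in capitals.

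Trim63 promoter: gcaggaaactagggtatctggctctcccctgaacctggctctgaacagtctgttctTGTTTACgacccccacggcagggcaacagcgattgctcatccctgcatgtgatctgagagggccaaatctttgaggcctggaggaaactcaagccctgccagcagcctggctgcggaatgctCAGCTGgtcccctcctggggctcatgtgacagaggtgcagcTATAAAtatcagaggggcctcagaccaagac

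The first run of capitals is the FoxO core, read on the other strand and beginning at position -194 from the start site. The second is the E-box CAGCTG, a palindrome read by myogenic factors, at -72, and the third is a TATA box (TATAAA or TTTATA) at -31. The latter 2 motifs were added after this window had been seen. The FoxO core was in 1 of the 10 member windows and in 1199 of 32851 RefSeq windows (3.65%), the E-box in 3 member windows, those of *Trim63* and *Fbxo40*, and in 16.3% of all windows, and the TATA box in 1 member window and in 13.6% of all windows. A match describes the letters and is not evidence of a bound site.

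Libraries held between 13989588 and 62042255 counts, and each member had at least 163 counts in every library. Levels are given as CPM, counts scaled to the same effective library size for every library. *Dnm1l* (chr16:16312228-16359038) was counted over the whole gene at 137 ± 21.2 CPM (SD, n = 3) in controls and 72.7 ± 7.76 (SD, n = 3) in miDrp1KO muscle. All miDrp1KO libraries lay below all controls, with a log2 fold change of -0.91 ± 0.18 (SE) and an adjusted p of 0.362 (edgeR quasi-likelihood test, Benjamini-Hochberg). DESeq2 gave the same gene an adjusted p of 0.00534. Over all genes, 2 of 16483 had an adjusted p under 0.05 in edgeR (0.0121%). One of them was *Esr1*, at 37.7 ± 4.72 CPM in controls and 551 ± 141 in miDrp1KO muscle (n = 3 each). The MerCreMer fusion holds part of the mouse oestrogen receptor, and reads from it and from the native gene cannot be told apart here. Summed CPM of 10 skeletal muscle fibre markers ran from 229632 to 286189 in controls and from 101415 to 215133 in miDrp1KO libraries, with no overlap and no marker at 0, and *Ttn* and *Myh4* took most of the sum in every library except F. Markers of the labelled tissue were thus present in all libraries. Single markers were apart between the groups for 3 of the 10. By mean, 9 were lower and 1 was higher in miDrp1KO muscle, with log2 fold changes from -1.29 to 1.26. In RNA from whole muscle fewer fibres and less RNA per fibre cannot be told apart, and a change limited to some of the transcripts was not tested.

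None of the 10 members passed the test at an adjusted p under 0.05, in edgeR or in any of the 16 other settings tried, among them DESeq2, in which 55 of the 7852 genes given an adjusted p passed (0.700%). In miDrp1KO muscle 7 members had lower and 3 had higher mean levels, and 48.0% of all genes were lower by sign. The sign count depended on small differences and moved between 6 and 8 lower members over 16 other settings. *Fbxo31* and *Fbxo21* had an unadjusted p under 0.05, which is 2 of 10 where 10.9% of all genes had one. Both were lower in miDrp1KO muscle, as were 6.22% of all genes at that threshold, and no member was higher at it, as were 4.68% of all genes. The same 2 genes were the only members whose groups did not overlap, against 18.0% of all genes in either direction and 10.3% in the lower one. The median log2 fold change of the members was -0.23, beside 0.02 over all genes. Without miDrp1KO library A the median was -0.37, and without miDrp1KO library F it was -0.06.

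**Figure D1:**
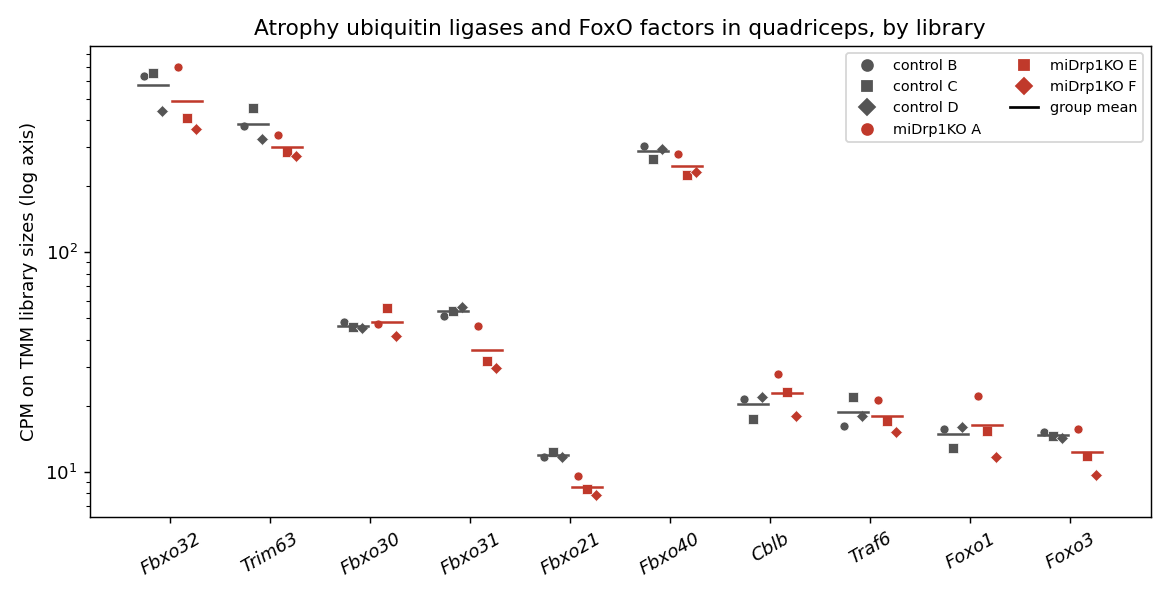
CPM of the 10 members on a log axis, 1 point per library, with horizontal lines at the means of the 3 control (grey) and 3 miDrp1KO (red) libraries. The groups are apart for *Fbxo31* and *Fbxo21* and overlap for the other 8 members.

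Levels of different genes were compared per length, as RPKM, which is CPM divided by the length in kilobases of a gene's merged GENCODE exons. In control muscle *Trim63* was highest at 136 ± 22.2 RPKM, followed by *Fbxo32* at 82.5 ± 16.8 and *Fbxo40* at 52.4 ± 3.58 (SD, n = 3). These 3 ligases kept this order in all 6 libraries. *Fbxo31* at 9.81 ± 0.445 and *Fbxo30* at 8.92 ± 0.331 RPKM came next and did not overlap in controls, but *Fbxo31* was above *Fbxo30* in only 3 of the 6 libraries. The lowest 5 were *Traf6*, *Fbxo21*, *Foxo3*, *Cblb* and *Foxo1*, at control means of 2.37, 2.15, 1.94, 1.94 and 1.71 RPKM. Within that order the control ranges of *Traf6* and *Fbxo21*, of *Foxo3* and *Cblb*, and of *Cblb* and *Foxo1* overlapped. Within libraries, *Cblb* was above *Foxo1* in all 6, *Traf6* above *Fbxo21* in 5 and *Foxo3* above *Cblb* in 1. *Fbxo21* was clear of *Foxo3* in controls but above it in 4 of the 6 libraries. By group mean, *Fbxo21* was the lowest member in miDrp1KO muscle, but in library F *Foxo3* and *Foxo1* were lower. Both FoxO genes were among these 5.

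*Fbxo32* (chr15:58175879-58214892) encodes atrogin-1, the F-box receptor known to target MyoD and the translation factor eIF3f. In controls (B, C and D, in this order throughout) its level was 635, 652 and 441 CPM, and in miDrp1KO muscle (A, E and F) it was 695, 411 and 363 CPM. The highest and the lowest of the 6 values were both in the miDrp1KO group, and the groups overlapped. The log2 fold change was -0.23 ± 0.28 (SE; 95% interval -0.84 to 0.38), with an adjusted p of 0.794 (edgeR quasi-likelihood test, Benjamini-Hochberg), and a two-sided exact permutation test gave p = 0.6. On the linear scale the interval ran from 0.557 to 1.30 times the control level. Without library A the log2 fold change was -0.55, without library F it was -0.04 and the upper bound became 1.51 times the control level.

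*Trim63* (chr4:134315120-134329629) encodes MuRF1, a RING ligase that is known to act on thick filament proteins. It was at 374, 453 and 328 CPM in controls and at 343, 286 and 273 CPM in miDrp1KO libraries A, E and F. Libraries E and F lay below all controls and library A lay above control D. The log2 fold change was -0.36 ± 0.20 (SE; 95% interval -0.80 to 0.09), with an adjusted p of 0.555 (edgeR quasi-likelihood test, Benjamini-Hochberg) and an exact permutation p of 0.2. The interval ran from 0.573 to 1.07 times the control level, and its upper bound was at most 1.21 in the 13 other edgeR fits, without control library C. *Trim63* kept its sign in all 16 settings tried.

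*Fbxo31* on chromosome 8 and *Fbxo21* on chromosome 5 encode F-box receptors; the latter is also called SMART and is known as a FoxO-dependent ligase of wasting muscle. *Fbxo31* was at 51.2, 54.0 and 56.1 CPM in controls and 46.2, 31.9 and 29.7 CPM in miDrp1KO muscle. Every miDrp1KO value lay below every control value, with library A nearest to the controls. The log2 fold change was -0.58 ± 0.19 (SE; 95% interval -0.996 to -0.17), with an unadjusted p of 0.00999 and an adjusted p of 0.382 (edgeR quasi-likelihood test, Benjamini-Hochberg). *Fbxo21* was at 11.7, 12.3 and 11.7 CPM in controls and 9.57, 8.33 and 7.82 CPM in miDrp1KO muscle. These groups did not overlap either, and the coefficient of variation of the controls was 2.95%. The log2 fold change was -0.47 ± 0.17 (SE; 95% interval -0.84 to -0.10), with an unadjusted p of 0.0169 and an adjusted p of 0.392 (same edgeR test, Benjamini-Hochberg). For both genes the exact permutation test gave p = 0.1, the smallest that 3 against 3 libraries allow. The unadjusted p of *Fbxo31* stayed under 0.05 in all 16 other settings and that of *Fbxo21* in 15 of them, the exception being 0.0529 without control library D.

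*Fbxo40* on chromosome 16 encodes a muscle-restricted F-box protein known to act on the insulin receptor substrate IRS1. It was at 304, 267 and 297 CPM in controls and 280, 226 and 233 CPM in miDrp1KO libraries A, E and F. As for *Trim63*, libraries E and F lay below the controls and library A lay among them, and the log2 fold change was -0.23 ± 0.18 (SE; 95% interval -0.64 to 0.17). *Fbxo30* on chromosome 10, the gene of MUSA1, a ligase known to be restrained by BMP signalling, was at 48.3, 45.8 and 45.0 CPM in controls and 47.3, 55.7 and 41.6 CPM in miDrp1KO muscle. Its miDrp1KO libraries lay on both sides of the controls, and the log2 fold change of 0.06 ± 0.16 (SE) turned to -0.06 without library E.

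*Cblb* on chromosome 16 encodes Cbl-b, a ligase known to act on IRS1 in unloaded muscle. It was at 21.5, 17.4 and 21.9 CPM in controls and 27.8, 23.0 and 17.9 CPM in miDrp1KO muscle, where libraries A and E lay above all controls and library F lay among them. *Traf6* on chromosome 2 encodes a ligase that builds signalling chains of ubiquitin upstream of NF-kB. It was at 16.2, 21.9 and 18.0 CPM in controls and 21.3, 17.1 and 15.2 CPM in miDrp1KO muscle, with overlapping groups. The log2 fold changes were 0.17 ± 0.19 (95% interval -0.24 to 0.59) for *Cblb* and -0.06 ± 0.18 (SE; -0.46 to 0.34) for *Traf6*. *Cblb* was at 0.03 without library A, 0.06 without control C and 0.34 without library F. The sign for *Traf6* turned with upper quartile normalization, with a slow fibre covariate and without control C or miDrp1KO F.

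*Foxo1* on chromosome 3 and *Foxo3* on chromosome 10 encode the FoxO factors best known for driving the ligase genes in muscle. Their activity is set largely by phosphorylation and location, which transcript counts do not measure. *Foxo1* was at 15.6, 12.8 and 16.1 CPM in controls and 22.1, 15.4 and 11.7 CPM in miDrp1KO muscle, so that libraries A and F lay above and below all controls. *Foxo3* was at 15.2, 14.6 and 14.3 CPM in controls and 15.6, 11.8 and 9.65 CPM in miDrp1KO muscle, with library A above and libraries E and F below all controls. The spread was larger in miDrp1KO muscle, with coefficients of variation of 32.1% for *Foxo1* and 24.4% for *Foxo3* against 11.9% and 2.89% in controls. The log2 fold changes were 0.14 ± 0.22 (SE; 95% interval -0.36 to 0.63) for *Foxo1* and -0.25 ± 0.19 (SE; -0.67 to 0.18) for *Foxo3*. Without library A *Foxo1* turned to -0.11 and *Foxo3* went to -0.42, and without library F they were at 0.35 and -0.08.

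**Figure D2:**
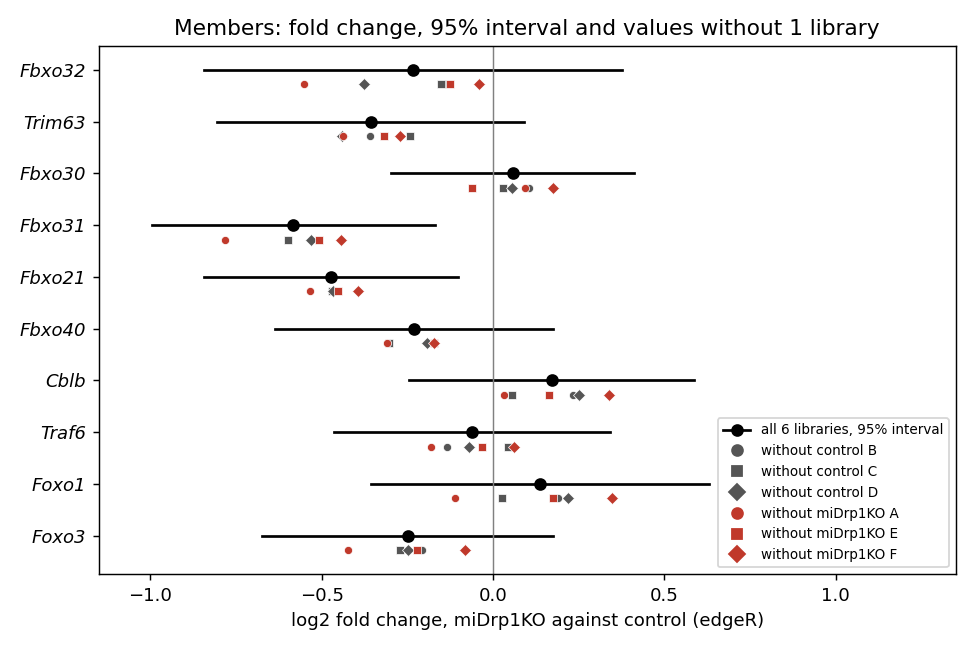
Log2 fold change of each member between miDrp1KO and control muscle in edgeR (black point) with its 95% interval (black line), and below it the values when 1 library was left out (grey for a control, red for a miDrp1KO library). Intervals exclude 0 for *Fbxo31* and *Fbxo21*, and leaving out library A gave the lowest value for 8 of the 10 members and leaving out library F the highest for 9.

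The miDrp1KO libraries did not move alike over the members. In library F, 9 members lay below the range of the 3 controls and 1 lay within it, where 33.1% of all tested genes lay below and 31.1% above. In library E, 6 members were below, 2 within and 2 above, beside 31.8% of all tested genes below and 29.2% above. In library A, 2 were below, 4 within and 4 above, beside 26.1% and 24.9% of all tested genes. The median log2 ratio of the members to the control mean was 0.06 in library A, -0.33 in library E and -0.42 in library F, where over all tested genes it was -0.02, -0.02 and -0.01. Among all 6 libraries, F held the lowest value for 8 of the 10 members and A the highest for 4. The 4 members above the controls in library A were *Fbxo32*, *Cblb*, *Foxo1* and *Foxo3*.

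**Figure D3:**
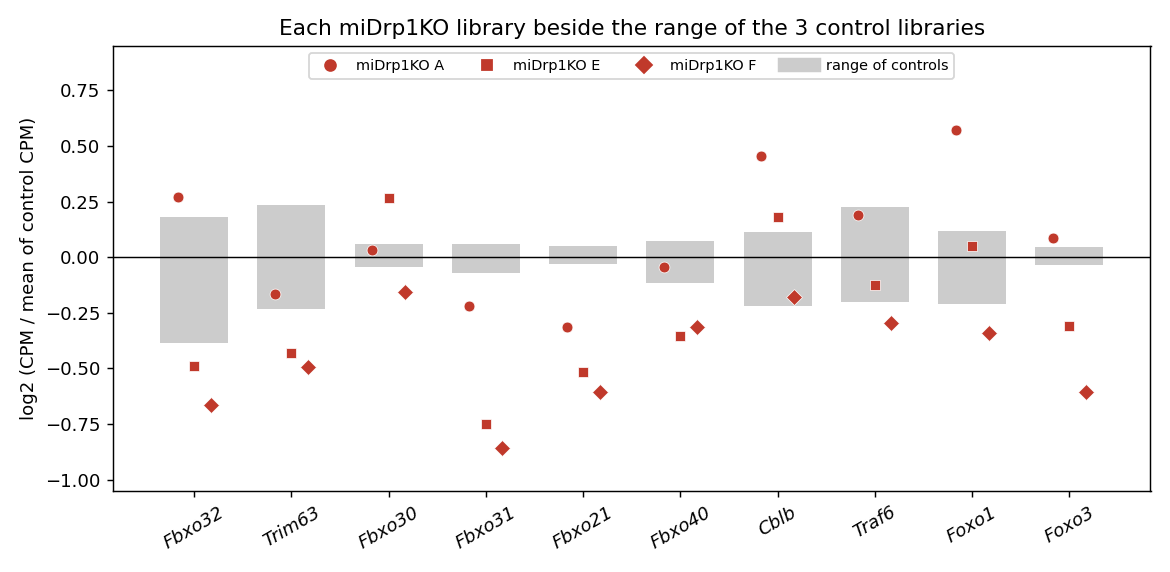
Log2 ratio of each member's CPM in miDrp1KO libraries A, E and F to the mean of the controls, with the range of the 3 control libraries in grey. Library F lies below the grey range for 9 of 10 members and library A for 2.

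The libraries also differed in fibre markers and in ribosomal RNA. Summed CPM of the 9 fast fibre markers were 132105, 149242 and 153345 in controls B, C and D and 118322, 66687 and 76056 in libraries A, E and F, lower in all miDrp1KO libraries. The fast myosin gene *Myh4* alone was at 49885, 58256 and 62914 CPM in controls and 40363, 17190 and 12241 CPM in libraries A, E and F, again with A nearest to the controls. Summed CPM of 9 slow fibre markers were 684, 93.0 and 151 in controls and 146, 972 and 898 in libraries A, E and F, so that control B stood with E and F. With a slow fibre covariate, 6 members were lower and their median log2 fold change was -0.14. Ribosomal RNA took 15.6, 7.95 and 3.36% of counts in the controls and 23.0, 1.48 and 24.4% in libraries A, E and F, and with this share as a covariate the median was -0.28. The summed adipocyte markers (7 genes) ran from 428 to 691 CPM in controls and from 284 to 408 in miDrp1KO muscle, and the 4 satellite cell markers from 9.69 to 10.6 and from 11.3 to 13.9 CPM. Single markers were apart between the groups for 3 of the 7 adipocyte genes and for 0 of the 4 satellite cell genes. Of the latter, 3 had higher and 1 had lower means in miDrp1KO muscle. Sums for macrophages (6 genes), fibroblasts (5), endothelium (4), Schwann cells (6) and red blood cells (4) overlapped between the groups. No marker was at 0 in any library, and the part of fast fibre or adipocyte content in the members' values was not tested.

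The rest of the pathway was described from 13 lists that hold 156 tested genes, each counted once. None passed the test in the main edgeR fit, and in DESeq2 *Myh4* did. *Mt2* passed in 2 of the 16 other settings. In edgeR the log2 fold change was negative for 110 and positive for 46 of them, and its median was -0.17. At an unadjusted p under 0.05 there were 17 lower and 4 higher genes, where 6.22% of all tested genes were lower and 4.68% higher at that threshold. The groups did not overlap for 23 lower and 5 higher genes, where 10.3% of all tested genes were apart in the lower direction and 7.67% in the higher one.

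Of the other FoxO factors, *Foxo4* was at 51.0, 55.8 and 49.8 CPM in controls and 40.9, 36.2 and 30.1 CPM in miDrp1KO muscle. All miDrp1KO values were lower, with a log2 fold change of -0.55 ± 0.16 (SE), an unadjusted p of 0.00664 and an adjusted p of 0.379 (edgeR quasi-likelihood test, Benjamini-Hochberg). *Foxo6* was low, at 2.53 ± 1.18 and 1.68 ± 0.431 CPM (SD, n = 3 each), with overlapping groups.

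Among 20 other ubiquitin ligases of muscle, 17 had lower and 3 higher means, the median was -0.25, and 5 had an unadjusted p under 0.05, all of them lower (6.22% of all tested genes). *Trim54* (MuRF3), a close relative of *Trim63*, was at 202 ± 11.6 CPM in controls and 138 ± 29.6 in miDrp1KO muscle (SD, n = 3), a log2 fold change of -0.55 ± 0.20. *Trim72* (MG53), known for membrane repair, differed by -0.39 ± 0.17 (SE) and *Stub1* (CHIP), a partner of chaperones, by -0.52 ± 0.22 on the log2 scale. The groups were apart for *Trim54* and *Trim72* and overlapped for *Stub1*, which was at -0.31 without library E.

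Neither the SCF and cullin core nor the E1 and E2 enzymes held a gene with an unadjusted p under 0.05. Over all tested genes, 10.9% had one. Of 8 genes for the SCF and cullin core, 7 were lower, led by *Cul3* at -0.44 ± 0.20 (SE). *Skp1a* and *Cul1*, which bind the F-box proteins and their RING partner, were at -0.31 ± 0.19 and -0.22 ± 0.18, with *Skp1a* at -0.20 without library E and *Cul1* at -0.10 without library F. Of 16 genes for E1 and E2 enzymes 12 were lower, among them *Uba1*, the main ubiquitin-activating enzyme, at -0.33 ± 0.17, *Ube2d1* at -0.38 ± 0.20 and *Ube2h* at -0.30 ± 0.17 on the log2 scale. *Ube2d1* was at -0.61 without library A and -0.23 with the slow fibre covariate, and without library F *Ube2h* was at -0.18. The polyubiquitin gene *Ubb* ran from 74.3 to 115 CPM in controls and from 44.1 to 102 CPM in miDrp1KO muscle, with overlapping groups and a sign that turned with the slow fibre covariate or without library E. Deubiquitinases, which remove ubiquitin, gave 6 lower of 8, with *Usp19*, a gene known to be induced in atrophy, at -0.60 ± 0.20 (unadjusted p 0.0105) and *Usp28* at -0.46 ± 0.18 (unadjusted p 0.0261). Neither gene's groups overlapped, whereas those of *Usp2*, at -0.42 ± 0.25, did. *Usp2* was at -0.76 without library A, -0.24 without library E and -0.27 without library F.

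The 25 other FoxO target genes were split, 15 of them lower and 10 higher (median log2 fold change -0.06, and 0.03 without library F). *Bcl6*, a transcriptional repressor, was at 41.1, 39.8 and 46.5 CPM in controls and 31.0, 22.3 and 18.8 CPM in miDrp1KO muscle. Its groups were apart, with a log2 fold change of -0.82 ± 0.19 (SE), an unadjusted p of 0.00134 and an adjusted p of 0.362 (edgeR quasi-likelihood test, Benjamini-Hochberg). *Mt2*, which encodes a metallothionein and is counted under glucocorticoid targets too, was at 0.616, 1.38 and 1.68 CPM in controls and 9.82, 3.46 and 3.84 CPM in miDrp1KO muscle. All miDrp1KO values were higher, by 2.16 ± 0.51 (SE) on the log2 scale (edgeR adjusted p 0.362, Benjamini-Hochberg), and DESeq2 without independent filtering gave an adjusted p of 0.00440. Over all settings the adjusted p of *Mt2* ran from 0.00440 to 0.877, and it was under 0.05 in 2 of the 16. *Cited2*, a transcriptional coregulator, was higher in all miDrp1KO libraries as well, at 12.8 ± 1.76 and 17.6 ± 0.688 CPM (SD, n = 3 each). Thus FoxO targets with the lowest p lay in both directions.

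Of 19 regulators upstream of FoxO, 10 were lower and 9 higher (median -0.01, from -0.14 without library A to 0.06 without library F). *Usp7*, a deubiquitinase that acts on FoxO, was at -0.47 ± 0.20 (SE; unadjusted p 0.0425), and the kinase genes *Pik3ca* and *Pdpk1*, on the insulin route to Akt, were at -0.43 ± 0.20 and -0.28 ± 0.17 on the log2 scale. For all 3 genes every miDrp1KO library was below every control, and without library F they were at -0.27, -0.25 and -0.14. No other gene of the 19 was apart, where 10.3% of all tested genes were apart in the lower direction. *Usp7* was the only 1 of the 19 with an unadjusted p under 0.05 (edgeR), where 10.9% of all tested genes had one. The list of glucocorticoid receptor targets (9 genes, including the receptor's own gene) gave 6 lower and 3 higher genes. Beside *Mt2* the lowest p were those of *Mt1*, which is counted under FoxO targets too, at 0.67 ± 0.41 and *Errfi1* at 0.40 ± 0.27. Groups overlapped for *Mt1* and *Errfi1*. Both were highest in library A, at 24.4 and 61.2 CPM, where the highest control values were 9.77 and 33.1 CPM, and without library A they were at 0.04 and 0.0044 on the log2 scale.

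Of 18 tested genes of NF-kB and Traf6 signalling 12 were lower, with *Tab2*, an adaptor that binds the chains built by Traf6, at 228 ± 11.0 CPM in controls and 153 ± 34.2 in miDrp1KO muscle (SD, n = 3). Its log2 fold change was -0.57 ± 0.20, and those of the NF-kB subunit genes *Rela* and *Relb* were -0.37 ± 0.17 and -0.46 ± 0.25. The groups were apart for these 3 genes, and for 1 other gene of the list, which was higher in miDrp1KO muscle. Over all tested genes, 10.3% were apart in the lower direction and 7.67% in the higher one. Of 14 genes for proteins known as ligase substrates in muscle 12 were lower, with a median of -0.40 that was -0.23 without control library B and -0.19 without miDrp1KO library E. Among them *Myh4* was at -1.29 ± 0.47 (SE), *Mybpc2*, a thick filament gene of fast fibres, at -1.03 ± 0.40 and *Myh2* at -0.74 ± 0.39. *Myh2* was at -0.27 without control library B and at -0.48 without miDrp1KO library F, and without miDrp1KO library A *Mybpc2* was at -1.65. This list shares *Myh4*, *Myh1*, *Mylpf* and *Tnni2* with the fast fibre markers, and DESeq2 gave *Myh4* an adjusted p of 0.0437, where the range over all settings was 0.0437 to 0.877.

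The denervation response, which also engages the ligases, had 7 higher and 6 lower genes of 13 tested. *Runx1* was higher in all miDrp1KO libraries, at 4.49 ± 0.784 CPM in controls and 7.63 ± 1.46 in miDrp1KO muscle (SD, n = 3), a log2 fold change of 0.75 ± 0.22 (SE). *Hdac4*, which acts between denervation and myogenin, was lower in all miDrp1KO libraries, at 38.2 ± 7.44 and 22.3 ± 6.81 CPM. The 3 NR4A genes, nuclear receptors that respond to activity, all had lower means and overlapping groups. *Nr4a1* was at 94.0, 108 and 80.7 CPM in controls and 103, 48.5 and 39.4 CPM in libraries A, E and F, with A among the controls as for *Fbxo40*. Its log2 fold change of -0.57 ± 0.35 (SE) was -1.08 without library A and -0.30 without library F, and *Nr4a2* and *Nr4a3* were under 5 CPM in every library.

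**Figure D4:**
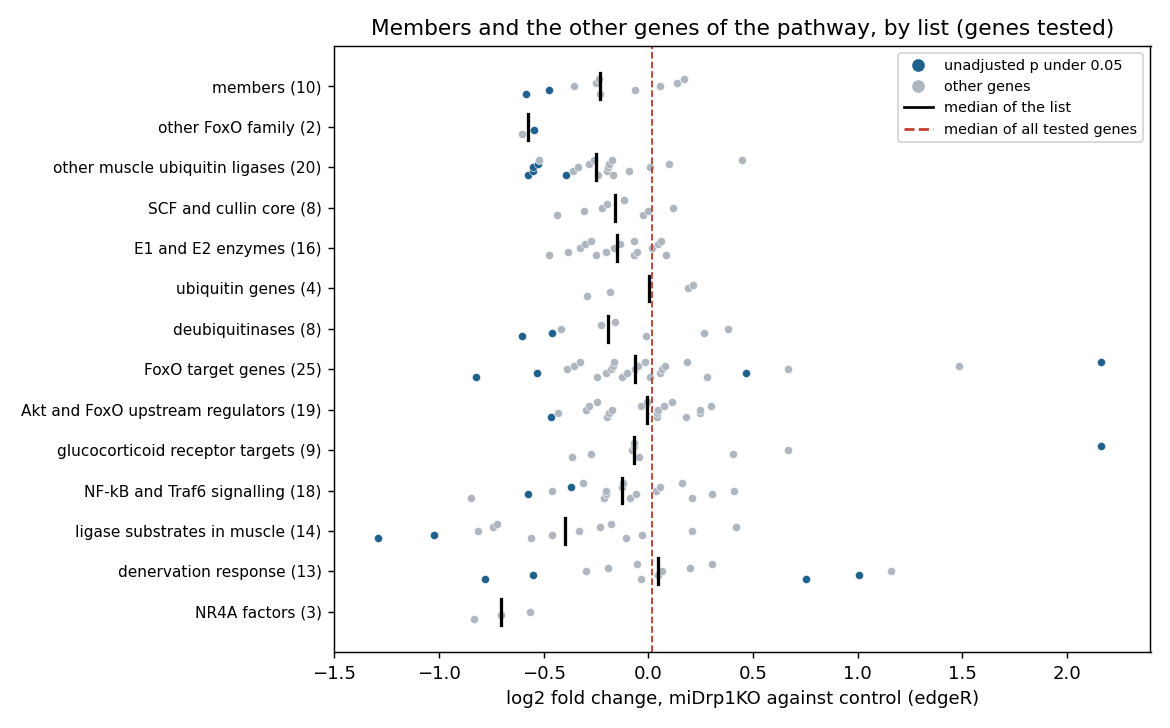
Log2 fold change of the members and of the genes of 13 pathway lists between miDrp1KO and control muscle in edgeR, 1 point per tested gene, blue where the unadjusted p was under 0.05, with the list's median in black and the median of all tested genes, 0.02, as a dashed line. Of 156 pathway genes 110 lie below 0, and no gene shown had an adjusted p under 0.05.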

How the data were processed

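Whole quadriceps RNA of 3 control and 3 miDrp1KO mice was sequenced from total RNA libraries (TruSeq Stranded, RiboZero Gold) in 2 pools. Which library was in which pool is not given in the sources used here. The authors aligned reads to GRCm38 with Rsubread 2.4.2 and deposited raw counts per gene for 27179 Entrez genes, 1 file per library. How reads on overlapping genes were counted is not given in the sources used here. In RefSeq, *Fbxo32*, *Cblb* and *Foxo3* each overlap 1 predicted gene that the files do not list.

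The test was the robust quasi-likelihood test of edgeR 4.0.16 in R 4.3.3, after filterByExpr on the groups and TMM scaling. P-values of 16483 genes were adjusted by Benjamini and Hochberg's method, with a threshold of 0.05. CPM used TMM library sizes (without a pseudocount), RPKM merged exon lengths of GENCODE M21. Single values were compared by exact two-sided permutation of the 6 libraries, whose p cannot go below 0.1. P-values measure the spread between these mice only.

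The 10 members and all lists were chosen with earlier results of these data known. The named genes are all members, *Dnm1l*, *Nr4a1* and, per pathway list, up to 3 genes of at least 1 CPM with the lowest unadjusted p. Some genes that this rule names are not reported here. *Esr1* and marker genes were added after their values were seen.

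Alternatives were DESeq2 1.42.0 with and without independent filtering, voom in limma 3.58.1, upper quartile or RLE scaling, no filter, at least 10 counts in every library, 29 ribosomal RNA genes and *Lars2* left out, a covariate for slow fibre markers or for ribosomal RNA, and 6 fits without 1 library. Protein sequences were not used here.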

Additional observations from a re-analysis of the deposited data

How the results depend on the processing

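No member passed an adjusted p of 0.05 under any of the 16 alternatives, and the members' median log2 fold change stayed negative in all of them, between -0.37 and -0.06. The number of members with an unadjusted p under 0.05 was 2 in all but 2 alternatives and ran from 1 (without control D) to 4 (without miDrp1KO A, which added *Fbxo32* and *Foxo3*). Over all genes that number was 951 of 17750 without control D and 3115 of 17845 without miDrp1KO A, against 1796 of 16483. The number of genes called over the whole table was 2 in edgeR, 55 in DESeq2, 35 in DESeq2 without independent filtering, 8 with no filter on low counts, 4 with the slow fibre covariate, 1 with the ribosomal RNA covariate and 1 to 7 when 1 library was left out. Signs turned only where the log2 fold change was small. *Traf6* went to 0.026 with upper quartile normalization and 0.098 with the slow fibre covariate, and ran from -0.18 to 0.060 with 1 library left out. With 1 library left out *Fbxo30* ran from -0.061 to 0.17, *Foxo1* from -0.11 to 0.35 and *Ubb* from -0.36 to 0.12. *Ubb* went to 0.046 with the slow fibre covariate and -0.59 with the ribosomal RNA covariate. The cause of these changes was not tested. Upper quartile normalization put the median of all genes at 0.11, against 0.02 with TMM. No paired analysis was possible because the library letters of the groups differ and nothing pairs the mice. With 3 mice a group, the intervals of single members span log2 differences of 0.7 or more. Each member had at least 163 counts in every library.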
